A study of Mus musculus with 112 samples.

Results

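Prefrontal-enriched transcripts were taken as the 200 array probes with the largest mean log2 signal in prefrontal cortex (PFC) over amygdala (AMY) in saline-treated mice. Raw log2 signals were quantile-normalised over the 10 saline PFC and 9 saline AMY arrays, and only the 17804 probes above background (detection p under 0.05) on all 10 saline PFC arrays were ranked. The 200 probes were 1.12% of those ranked, out of 45281 on the array. They comprised 163 probes of 141 named genes, of which 19 genes had several probes among the 200, and 37 probes without a gene symbol in the platform annotation.

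The study profiled liver, PFC and AMY of male C57BL/6J mice on Illumina bead arrays after 8 days of dosing by mouth with a ligand of the peroxisome proliferator-activated receptors (PPARs). Fenofibrate is a PPARα agonist and was given at 150 mg/kg (9 PFC, 9 AMY and 9 liver arrays). Tesaglitazar, a joint PPARα and PPARγ agonist, was given at 1.5 mg/kg (9, 10 and 9 arrays), and bezafibrate, an agonist of every PPAR subtype, at 75 mg/kg (10, 9 and 9 arrays). Saline mice received saline (10, 9 and 10 arrays); the agonists were suspended in saline with Tween-80, and the labels do not say whether Tween-80 was in the saline dose too. The mice carried no stated genetic change, each array held RNA from 1 mouse and tissue, and the doses differ between agonists, so that comparisons between them hold for these doses only.

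The prefrontal cortex is a layered tissue in which glutamatergic projection neurons, specified by transcription factors such as Tbr1, are stacked between inputs from thalamus and other cortical areas. The amygdala joins cortex-like nuclei, which hold similar projection neurons, to striatum-like nuclei of inhibitory neurons and to cells shared with the hypothalamus. PPARs bind DNA with retinoid X receptors and raise genes of fatty acid uptake and oxidation, most strongly in liver.

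Promoter sequences are shown for 3 members on which the results turn: Tnnc1, a contractile protein gene high in the ranking, Mgll, both member probes of which rose in liver, and Scn4b, which was not above background in saline liver. They are RefSeq sequences of the GRCm38.p6 build, the 250 bases before the gene start, 5′ to 3′ on the + strand, at chr14:31208062-31208311 for Tnnc1, chr6:88724162-88724411 for Mgll (the first of 2 listed starts) and chr9:45138374-45138623 for Scn4b. Capitals mark the E-box CAGATG, which basic helix-loop-helix factors of neurons and muscle can bind, on the strand shown.
Tnnc1: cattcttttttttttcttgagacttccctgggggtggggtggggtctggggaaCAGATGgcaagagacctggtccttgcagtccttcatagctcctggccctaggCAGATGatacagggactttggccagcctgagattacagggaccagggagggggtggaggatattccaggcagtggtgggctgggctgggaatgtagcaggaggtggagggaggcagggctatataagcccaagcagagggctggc
Mgll: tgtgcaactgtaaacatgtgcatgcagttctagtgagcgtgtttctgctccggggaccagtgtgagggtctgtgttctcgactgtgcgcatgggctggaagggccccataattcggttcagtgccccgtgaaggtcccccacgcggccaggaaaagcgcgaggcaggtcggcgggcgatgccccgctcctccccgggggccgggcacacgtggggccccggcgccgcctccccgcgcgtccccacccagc
Scn4b: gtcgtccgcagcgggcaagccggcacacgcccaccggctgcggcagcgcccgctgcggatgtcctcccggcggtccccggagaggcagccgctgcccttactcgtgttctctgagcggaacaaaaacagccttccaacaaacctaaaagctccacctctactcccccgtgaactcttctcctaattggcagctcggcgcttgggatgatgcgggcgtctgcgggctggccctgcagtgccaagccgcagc
Tnnc1 held 2 such E-boxes, and the other 2 windows held none of the 6 motifs searched. Both strands of the same windows were searched in the 108 member genes with a listed promoter and in all 27025 genes. The E-box stood in 17.6% of member promoters and 16.3% of all promoters, and the nuclear receptor hexamer AGGTCA in 15.7% and 15.8%. The PPAR element AGGTCANAGGTCA stood in 0 member promoters and in 11 of all promoters (0.0407%), and each of its matches also counts as a match to the hexamer. The MEF2 core TAAAAATA stood in 1.85% of member promoters and 2.84% of all, the T-box site AGGTGTGA in 1.85% and 1.3%, and the cAMP response element TGACGTCA in 1.85% and 1.77%. A match is a run of letters, not a binding site.

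A set of 3 libraries stood apart from their labels or groups, and many of the counts and differences that rest on them are given with and without them. Where no second value is given, PFC levels, means and counts include the array of fenofibrate mouse 20. The PFC array of fenofibrate mouse 20 had a mean log2 level over the 200 probes of 9.15, against 9.42 to 9.83 on the other 37 PFC arrays. Its summed level of an olfactory marker list was 7030 intensity units, with 2980 on the next array and a median of 915, and its sums of the inhibitory neuron list (54000, next 36100) and the striatal list (25900, next 17600) were also the highest. In liver, deviations from the mean profile of the library labelled saline 4 correlated at 0.81 with those of the tesaglitazar group and -0.70 with those of saline, and the library labelled tesaglitazar 6 at 0.64 with saline and -0.57 with tesaglitazar. Of the 37 liver arrays, 32 lay closest to their own group. Per array, 44.0 to 49.8% of probes were above background in PFC, 46.4 to 50.6% in AMY and 38.1 to 42.7% in liver, with mean raw signals of 245 to 409, 305 to 447 and 243 to 379 units; the number of arrays limits the precision.

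By the rule, the mean PFC minus AMY difference in saline mice ran from 0.80 to 3.94 on the log2 scale, with a median of 0.99. It exceeded 2-fold for 97 probes and 4-fold for 10, and for 173 probes every saline PFC array lay above every saline AMY array. The members were chosen by these saline values, which are therefore a description. ILMN_2417926, which has no gene name here, led at 3.94, followed by Trbv13-2 (2.66), Cpne9 (2.54), Tnnc1 (2.35), ILMN_1247996 (2.33) and Myl4 (2.30). Cited4 and 1110008P14Rik closed the list at 0.80, and the first probes outside, ILMN_2416209, 2810025M15Rik and Dkkl1, stood at 0.80 as well. Members were bright, with a median saline PFC level of 9.68 against 7.94 for all ranked probes, and all 200 were above background on all 38 PFC arrays, as were 191 on all 37 AMY arrays.

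Whether the regional difference was also present in mice the ranking did not use was tested in the 56 agonist brain arrays, on background-corrected log2 levels. In each agonist group 199 of the 200 members were higher in PFC than in AMY and 0 were lower (limma, adjusted p under 0.05 over 25460 probes), while of all probes 22.9% were higher and 24.1% lower in fenofibrate mice, 20.6% and 20.4% in tesaglitazar mice, and 21.2% and 21.2% in bezafibrate mice. The median member difference was 1.32, 1.27 and 1.25 (log2) in those groups, against 0.00, 0.01 and 0.00 over all probes. In all 3 groups 197 members were higher, 141 by over 2-fold and 18 by over 4-fold. In bulk tissue, more cells of a type and more RNA per cell cannot be told apart. When each tissue was normalised on its own, the median of all probes moved by -0.17 in each agonist and 198, 197 and 196 members were called; higher and lower calls over all probes then numbered 2434 and 11775 for fenofibrate, 1909 and 11705 for tesaglitazar, and 2040 and 11921 for bezafibrate, in place of 5830 and 6133, 5244 and 5188, and 5389 and 5397.

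Array ranges were separate for most members. All PFC arrays lay above all AMY arrays for 155 members in fenofibrate mice, 177 in tesaglitazar mice and 187 in bezafibrate mice, against 4.62%, 5.09% and 5.38% of all probes tested. Over the 28 PFC and 28 AMY agonist arrays pooled, 130 members had no overlap. The share of all probes was not counted for the pooled arrays. The fenofibrate 20 array was the lowest of the 28 for 118 members and the highest for 10. Without it 192 members had no overlap in fenofibrate mice, against 6.62% of all probes. Over the 27 PFC and 28 AMY arrays 162 had none, again with no share of all probes counted. The median member difference with fenofibrate was then 1.38, and 199 members were again called higher, beside 23.3% of all probes higher and 24.3% lower.

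The 4 sarcomere protein probes, of genes better known from striated muscle, had the largest differences of any role group, with medians of 2.54, 2.59 and 3.01 in fenofibrate, tesaglitazar and bezafibrate mice. Tnnc1, slow skeletal and cardiac troponin C, had log2 levels of 8.43, 9.89 and 10.57 (lowest, median and highest of 28) in agonist PFC and 6.70, 6.97 and 7.37 in agonist AMY. No PFC array overlapped an AMY array, and without the fenofibrate 20 array the lowest PFC level was 9.34. Its difference was 2.80 ± 0.14 (limma's SE) with fenofibrate, 2.84 ± 0.14 with tesaglitazar and 3.12 ± 0.14 with bezafibrate (limma, adjusted p 6.42e-24 or lower), and 2.97 ± 0.12 with fenofibrate without that array. Myl4, an essential light chain of myosin, had levels of 9.75, 10.96 and 11.40 in PFC and 7.17, 8.41 and 9.32 in AMY, also without overlap. Tcap, the titin cap protein, was dimmer at 6.96, 7.80 and 8.49 in PFC and 4.51, 4.88 and 5.21 in AMY, where it was above background on 26 of 28 arrays. Tmod1, which caps actin filaments, was the smallest of the group at 1.01, 0.92 and 1.01. The Tcap difference of 3.15 ± 0.13 with fenofibrate (limma, adjusted p 6.07e-28) is understated by the offset of 16 units added to each signal, as for every dim probe.

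Trbv13-2, a variable segment of the T cell receptor β chain, had the widest difference of a named probe. It stood at 8.08, 9.28 and 9.57 in agonist PFC and 4.33, 4.60 and 6.01 in agonist AMY, where it was above background on 14 of 28 arrays. The differences were 4.46 ± 0.13, 4.54 ± 0.13 and 4.83 ± 0.13 with fenofibrate, tesaglitazar and bezafibrate (limma, adjusted p 1.33e-34 or lower). The unnamed ILMN_2417926 was wider still at 5.12 ± 0.16, 5.10 ± 0.15 and 5.62 ± 0.15, with PFC levels of 10.41, 11.45 and 11.71 and AMY levels of 5.54, 6.14 and 8.02. Both probes separated every PFC array from every AMY array. Without the fenofibrate 20 array, the lowest PFC levels were 8.95 for Trbv13-2 and 11.16 for ILMN_2417926, and the fenofibrate differences 4.59 and 5.24.

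Transcription regulators made up 21 probes, of which 20, 20 and 21 were higher in PFC with fenofibrate, tesaglitazar and bezafibrate (medians 1.36, 1.30 and 1.32). Tbr1, a T-box factor of glutamatergic projection neurons, had levels of 9.12, 9.92 and 10.24 in agonist PFC and 8.08, 8.75 and 9.48 in agonist AMY. Only 1 of its PFC arrays, fenofibrate 20, fell within the AMY range, and the difference was 1.01 ± 0.15, 1.13 ± 0.14 and 1.19 ± 0.14 (limma, adjusted p 5.1e-08 or lower). Otx1, a homeobox factor of deep cortical layers, stood at 8.24, 8.73 and 9.04 in PFC and 6.96, 7.37 and 7.76 in AMY, without overlap. Satb1, a chromatin organiser, differed by 1.10, 1.26 and 1.32, Foxp1, a forkhead repressor, by 1.36, 1.39 and 1.46, and Pou3f1, a POU factor, by 1.51, 1.98 and 2.13 in the same order of agonists.

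Mef2c, an activity-regulated factor of excitatory neurons, had 3 probes among the members. ILMN_1214950 differed by 2.07, 1.46 and 1.57 with fenofibrate, tesaglitazar and bezafibrate, ILMN_2732465 by 1.58, 1.35 and 1.12, and ILMN_2887992 by 1.52, 1.38 and 1.06 (limma, adjusted p 7.4e-06 or lower). Meis2, a homeobox factor abundant in striatal neurons, was the exception among these genes at its member probes. Its probe ILMN_2850391 had levels of 10.97, 11.71 and 12.92 in agonist PFC and 10.81, 11.30 and 11.97 in agonist AMY, and the regions overlapped. The difference was 0.20 ± 0.14 with fenofibrate (limma, adjusted p = 0.275), 0.35 ± 0.14 with tesaglitazar (0.0411) and 0.44 ± 0.14 with bezafibrate (0.00935). Its highest PFC value, 12.92, was on the fenofibrate 20 array, and without that array the fenofibrate difference was 0.03 ± 0.12 (adjusted p = 0.854). The other Meis2 member probe, ILMN_2774121, was called with fenofibrate (1.04, and 0.86 without that array) and bezafibrate (0.64). With tesaglitazar it was 0.45 ± 0.22 (limma, adjusted p = 0.102). A Meis2 probe outside the members, ILMN_1232525, was called higher with all 3 agonists, fenofibrate 20 included. It differed by 0.85, 0.55 and 0.68 (limma, adjusted p = 0.00183, 0.0423 and 0.0117).

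Inhibitory neuron genes were represented by 3 members. Pvalb, the calcium buffer of fast-spiking cells, had levels of 9.92, 11.29 and 11.58 in agonist PFC and 8.51, 9.10 and 10.34 in agonist AMY. The lowest PFC value was that of fenofibrate 20, and the next was 10.60. Its difference of 1.85 ± 0.22 (2.0 ± 0.21 without that array), 1.91 ± 0.21 and 1.78 ± 0.21 was larger in size than that of the peptide genes Vip (1.43, 1.29 and 1.04) and Npy (0.67, 0.74 and 0.83), though these were not tested against each other. For Npy no PFC array overlapped an AMY array. The inhibitory neuron list as a whole was split, with 10, 10 and 9 of 33 probes higher in PFC and 13, 13 and 13 lower in the 3 agonist groups.

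Among membrane proteins, 11 channel, pump and receptor probes had medians of 1.26, 1.13 and 1.18. Cckbr, the brain receptor of cholecystokinin, stood at 10.88, 11.30 and 11.69 in agonist PFC and 9.62, 10.31 and 10.61 in agonist AMY, without overlap. Scn4b, a β subunit of sodium channels, had levels of 8.11, 9.14 and 9.63 in PFC and 5.15, 6.29 and 9.62 in AMY. The AMY values covered almost the whole range, and 27 of the 28 PFC arrays fell within it. Its difference was 2.17 ± 0.35, 1.51 ± 0.34 and 3.26 ± 0.34 (limma, adjusted p 0.000272 or lower). The Scn4b probe outside the members, ILMN_1242172, differed by only 0.09, 0.115 and 0.063 (limma, adjusted p = 0.487, 0.368 and 0.643). The regional difference of Scn4b thus rests on its member probe. Kcna1, a potassium channel subunit, differed by 1.76, 1.21 and 1.31, Chrm3, a muscarinic receptor, by 1.31, 1.40 and 1.48, and Gabrd, the δ subunit of GABA-A receptors, by 0.92, 0.71 and 0.88.

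The 8 probes of membrane traffic and synapse genes had medians of 1.61, 1.59 and 1.83. Cpne9, a copine that binds membranes with calcium, had levels of 9.20, 10.60 and 11.19 in agonist PFC and 6.84, 7.44 and 7.99 in agonist AMY. Lamp5, a lysosome-related protein of cortical neurons, had 11.59, 12.49 and 12.81 in PFC and 10.23, 10.75 and 11.26 in AMY. Without fenofibrate 20 the lowest PFC levels were 10.02 and 12.08. Both were free of overlap, and Cpne9 differed by 2.99 ± 0.16 (3.16 ± 0.13 without that array), 3.0 ± 0.15 and 3.33 ± 0.15 (limma, adjusted p 2.84e-23 or lower). Stx1a, a fusion protein of synaptic vesicles, differed less, by 0.97, 0.94 and 0.91.

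Wnt pathway genes (6 probes, medians 1.58, 1.73 and 1.67) included the ligand Wnt10a and the secreted Wnt modulator Dkk3. Wnt10a differed by 2.13 ± 0.16, 2.07 ± 0.16 and 1.92 ± 0.16, without overlap of arrays (limma, adjusted p 1.85e-15 or lower). Dkk3 had 3 member probes, 2 of them bright with differences of 1.38 to 1.53 and the dim ILMN_1224173 with 2.35, 2.30 and 2.29. Of the secreted factors, Inhba, which encodes the βA subunit of activin, stood at 6.46, 7.06 and 7.86 in agonist PFC and 5.19, 5.53 and 5.95 in agonist AMY. Its highest PFC value was that of fenofibrate 20, and without that array the highest was 7.46. Sema7a, a membrane-anchored semaphorin, differed by 1.51, 1.62 and 1.62.

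Kinase, phosphatase and signalling enzyme genes (18 probes) had medians of 1.19, 1.08 and 1.12. Rgs4, which speeds the turnoff of G proteins, had levels of 11.95, 12.62 and 13.06 in agonist PFC and 10.96, 11.19 and 11.32 in agonist AMY. Deptor, an inhibitor of mTOR, differed by 1.56, 1.81 and 1.92, and Camkk2, a calcium-activated kinase, by 1.39, 1.31 and 1.22 at ILMN_1256263 and by 1.34, 1.15 and 1.18 at ILMN_2846803. Lipid and glycan genes (9 probes, medians 1.53, 1.57 and 1.48) included Mgll, monoacylglycerol lipase, which breaks down endocannabinoid lipids. Mgll probe ILMN_2700408 stood at 10.37, 10.92 and 11.24 in PFC and 8.97, 9.35 and 9.67 in AMY, and differed by 1.53 ± 0.08, 1.58 ± 0.08 and 1.49 ± 0.08 (limma, adjusted p 1.31e-23 or lower). Its other member probe, ILMN_2592925, differed by 1.55, 1.79 and 1.81. An Mgll probe outside the members, ILMN_2857957, differed by less, at 0.79, 0.91 and 1.03. Small GTPase regulators (12 probes; 1.05, 0.99 and 1.09), cytoskeletal genes (10 probes; 0.95, 1.01 and 0.98) and antigen presentation genes with the T cell receptor segment (4 probes; 0.82, 0.96 and 0.93) had low medians, as did the 3 inhibitory neuron genes with bezafibrate (1.04). Secreted factors (8 probes; 1.38, 1.39 and 1.50), cell surface and guidance genes (10 probes; 1.26, 1.17 and 1.18), genes of other roles (39 probes; 1.28, 1.27 and 1.31) and unnamed probes (37; 1.39, 1.45 and 1.26) lay between. Roles were assigned once the members were known, and the groups were not tested against each other.

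Marker lists gave the setting of these genes, as counts of list probes higher and lower in PFC with fenofibrate, tesaglitazar and bezafibrate. Excitatory cortical neuron markers were higher for 17, 15 and 17 and lower for 4, 4 and 5 of 36 probes, with 4 member probes of Tbr1 and Mef2c. Their summed level ran from 52000 to 74200 units in agonist PFC and 45700 to 62400 in agonist AMY. Amygdala and hypothalamus markers were higher for 3, 3 and 2 and lower for 22, 24 and 27 of 37 probes, held 0 members, and summed to 7590 to 11100 units in PFC and 14800 to 21600 in AMY. Emx2 and Neurod6 of the excitatory list and Otp and Sim1 of the amygdala list were above background on none of the 56 arrays. Upper layer markers were higher for 13, 13 and 15 and lower for 7, 7 and 6 of 31 probes, deep layer markers for 14, 11 and 13 and for 6, 10 and 8 of 35. Striatal and central amygdala neuron markers were higher for 4, 4 and 8 and lower for 14, 18 and 8 of 28 probes. This list held 3 member probes of 2 genes, so those members did not stand for the list as a whole. Voltage-gated channel genes were higher for 56, 41 and 47 and lower for 13, 11 and 13 of 100 probes.

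Glial markers were called in both directions, at shares to be read beside the 22.9%, 20.6% and 21.2% of all probes higher and 24.1%, 20.4% and 21.2% lower in PFC, and their part in the members' difference was not tested. Astrocyte markers were higher for 4, 4 and 1 and lower for 9, 9 and 13 of 26 probes, and summed to 28300 to 38200 units in agonist PFC and 31400 to 37000 in agonist AMY; the highest PFC sum was that of fenofibrate 20, and the next was 32800. Oligodendrocyte markers were higher for 0, 0 and 9 and lower for 10, 5 and 4 of 33 probes. Their sums were 22400 to 38000 in PFC and 18300 to 46800 in AMY. Direct contrasts of the regional difference between bezafibrate and each other agonist called 0 of 25460 probes. The counts of oligodendrocyte calls therefore show no difference between agonists. Microglia markers were higher for 3, 4 and 6 and lower for 3, 1 and 0 of 13 probes, with sums of 2670 to 3520 in PFC and 2640 to 3320 in AMY. Mlc1 of the astrocyte list and Ermn of the oligodendrocyte list were above background on none of the 56 arrays. Choroid plexus markers were higher for 0 and lower for 5, 6 and 8 of 13 probes, and their sum ran from 584 to 29900 units in PFC and 974 to 32200 in AMY, with medians of 813 and 1700. The highest PFC sum was that of fenofibrate 17, and the next was 4960. These 4 lists held 0 members.

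Among the brightest members, 4 without a gene name had wide AMY ranges. ILMN_2450735 had levels of 12.28, 12.94 and 14.22 in agonist PFC and 8.99, 11.12 and 12.85 in agonist AMY, where 11 PFC arrays fell within the AMY range. Its difference was 2.21 ± 0.31 with fenofibrate, 2.67 ± 0.30 with tesaglitazar and 1.13 ± 0.30 with bezafibrate (limma, adjusted p 0.00201 or lower). ILMN_1230073 (1.97, 2.33 and 1.17), ILMN_2638923 (2.23, 2.65 and 1.11) and ILMN_1247996 (2.66, 2.65 and 1.87) likewise had their smallest difference with bezafibrate. All 4 were also bright in liver, which was normalised apart from the brain, with saline liver means of 14.41 for ILMN_1230073, 13.85 for ILMN_2450735, 12.87 for ILMN_2638923 and 12.12 for ILMN_1247996.

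Whether the regional difference itself differed between agonists was tested by interaction contrasts, which called 0 of 200 members in each of the 3 pairs. Unadjusted p under 0.05 was reached by 10 members between fenofibrate and tesaglitazar, 32 between fenofibrate and bezafibrate and 19 between tesaglitazar and bezafibrate, and limma called 0.00393%, 0% and 0% of all probes. The 95% interval lay within 0.5 log2 units of 0 for 119, 89 and 120 members, so that larger differences were not bounded for the others. ILMN_2954474, the remaining member missed in a group, had a PFC minus AMY difference of 0.43 with bezafibrate (limma, adjusted p = 0.339).

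Other probes of the member genes gave a further reading that the ranking had passed over. There were 86 of them, for 64 genes, and 73, 75 and 76 were higher in PFC with fenofibrate, tesaglitazar and bezafibrate. In all 3 groups 68 were higher and in none of them 7. Members among the probes of a gene share its transcript and are not independent of these. By the mirrored rule, the 200 probes most enriched in saline AMY were lower in PFC for 195, 200 and 200.

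The mean level of the members on an array did not separate the treatments in either region. It averaged 9.67 ± 0.20 (SD, n = 9) with fenofibrate, 9.62 ± 0.08 (n = 9) with tesaglitazar, 9.67 ± 0.11 (n = 10) with bezafibrate and 9.64 ± 0.11 (n = 10) with saline in PFC. In AMY it was 8.24 ± 0.06 (n = 9), 8.21 ± 0.11 (n = 10), 8.22 ± 0.11 (n = 9) and 8.23 ± 0.16 (n = 9). The array ranges of all 4 groups overlapped in each region. The saline arrays had chosen the members, so the saline means are a description.

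Agonist against saline comparisons in the brain reuse the saline arrays that chose the members and are given as descriptions. In PFC, fenofibrate mice had 5 members called higher and 2 called lower than saline (limma), beside 2.51% and 3.35% of all 23079 probes. The higher ones were Mef2c ILMN_1214950 (0.42 ± 0.12), Pik3r1 ILMN_2473531 (0.30 ± 0.08), Sipa1l1 (0.29 ± 0.09), Pcdh10 (0.27 ± 0.08) and Strbp (0.20 ± 0.06); the lower ones were Hs3st2 (-0.32 ± 0.09), a heparan sulfate sulfotransferase, and Dclk1 (-0.33 ± 0.09), a microtubule-linked kinase. Without the fenofibrate 20 array 7 were called higher and 0 lower, beside 1.85% and 2.42%; Sipa1l1 (0.29), Hs3st2 (-0.26) and Dclk1 (-0.26) then missed the threshold (limma, adjusted p = 0.068, 0.0782 and 0.0644). Tesaglitazar and bezafibrate each had 0 members called in PFC, beside 0% and 0.013% of all probes, with 16 and 8 at an unadjusted p under 0.05. In AMY, 0 members were called for each agonist against saline, beside 0% of 23803 probes each, with 29, 34 and 32 members at an unadjusted p under 0.05 for fenofibrate, tesaglitazar and bezafibrate. With the part of the mouse numbering as a block 0 were again called for each agonist. Within mice 1 to 20 limma called 20, 0 and 22, and within mice 21 to 40 it called 4, 12 and 1. The 0 calls over all mice therefore do not bound these differences. The share of all probes called within these parts is not given, so these counts do not set the members apart from other probes.

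Contrasts between agonists hold no saline array, although the fit takes its spread from all 4 groups; with only the groups compared in the fit, 23 members were called between fenofibrate and tesaglitazar in PFC. In PFC, 22 members were higher with fenofibrate than with tesaglitazar and 0 were lower (limma, adjusted p under 0.05), which is 11% of the members, beside 4.57% of all probes higher and 3.49% lower. Over the 200 the median difference was -0.01, against -0.02 over all probes, and 94 members were above 0. Without the fenofibrate 20 array 28 members were higher and 0 lower (4.14% and 2.72% of all probes), the median was 0.07 and 136 were above 0, and all 22 were among the 28. Median centring in place of quantile normalisation gave 12 higher and 6 lower. Within mice numbered 1 to 20 limma called 0 members and within mice 21 to 40 it called 33. The counts within these parts, under median centring and with only the groups compared stand without the share of all probes. The 22 members were 18 probes of 16 named genes and 4 unnamed probes.

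Actb, cytoskeletal β-actin, had the largest difference of the 22 at its sole probe among the members, and its 2 other probes on the array differed by less. It had PFC levels of 10.61, 11.13 and 11.99 (lowest, median and highest) with fenofibrate and 9.69, 10.02 and 10.75 with tesaglitazar, and the 2 groups overlapped slightly. The difference was 1.10 ± 0.25 (limma, adjusted p = 0.00531). Bezafibrate and saline mice spanned 9.70 to 11.72 and 9.68 to 12.31, and so overlapped both of these groups.

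Kinase genes stood among the most separated. Csnk1e, casein kinase 1ε, had levels of 9.58, 9.83 and 10.14 with fenofibrate and 8.90, 9.26 and 9.58 with tesaglitazar, so that every fenofibrate array lay above every tesaglitazar array. Its difference was 0.56 ± 0.10 (limma, adjusted p = 0.000719). Gsk3b, glycogen synthase kinase 3β, had 8.95, 9.35 and 9.84 with fenofibrate and 8.33, 8.64 and 9.01 with tesaglitazar, and differed by 0.72 ± 0.15 (adjusted p = 0.00289). These ranges met only at their ends.

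Mef2c probe ILMN_1214950 had levels of 8.89, 9.01 and 9.20 with fenofibrate and 7.63, 8.41 and 8.98 with tesaglitazar, and differed by 0.67 ± 0.12 (limma, adjusted p = 0.00074). Its brightest probe, ILMN_2732465, spanned 12.10 to 12.84 and 11.79 to 12.67, so the arrays overlapped there. Kcna1 had 8.32, 9.24 and 9.51 with fenofibrate and 7.86, 8.46 and 9.07 with tesaglitazar and differed by 0.64 (adjusted p = 0.0102). The channel gene Kcnh1 (0.53), the transcription factors Zbtb7a (0.55) and Sox5 (0.50), the GTPase regulators Arhgap32 (0.58) and Sipa1l1 (0.46), the synaptic Rimbp2 (0.49) and the kinase subunit Pik3r1 (0.42 and 0.35 at its probes) were called too. So were R3hdm1 (0.49), Tmem87a (0.33), Flrt1 (0.26) and Strbp (0.21), and the unnamed ILMN_1221526 (0.76), ILMN_1247996 (0.70), ILMN_2638923 (0.67) and ILMN_1246900 (0.42).

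Probes outside the members gave these genes a further reading. Of 18 other probes of 12 of these genes, 5 were higher and 0 lower, with a median difference of 0.24 and a range of -0.16 to 0.50. The other probes of the leading genes differed by less than the members did. For Actb they gave 0.27 ± 0.11 at ILMN_2617433 (limma, adjusted p = 0.12) and 0.22 ± 0.06 at ILMN_2698799 (0.0213), in place of 1.10. Csnk1e gave 0.09 ± 0.05 at ILMN_2712792 (limma, adjusted p = 0.286), Gsk3b 0.39 ± 0.10 at ILMN_2593888 (0.0112) and Mef2c 0.22 ± 0.09 at ILMN_1220270 (0.0959).

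The other brain comparisons between agonists called 0 members. Fenofibrate against bezafibrate and tesaglitazar against bezafibrate in PFC called 0.104% and 0.0173% of all probes, and 32 and 25 members had an unadjusted p under 0.05. Without the fenofibrate 20 array, fenofibrate against bezafibrate called 0% of all probes, with 28 members at an unadjusted p under 0.05. In AMY limma called 0% of probes in all 3 pairs, with 16, 20 and 20 members at an unadjusted p under 0.05 for fenofibrate against tesaglitazar, fenofibrate against bezafibrate and tesaglitazar against bezafibrate. The 22 members just described had a median difference of 0.16 between fenofibrate and tesaglitazar in AMY, and 20 of them were above 0. Over all 200 members that median was 0.01, and 102 were above 0. The 22 were picked by their PFC difference and include several probes of the same gene, so their signs are not independent.

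The part of the mouse numbering moved with members in AMY, in a comparison chosen after the data were seen. The labels do not say that mice 1 to 20 and 21 to 40 were handled apart. Across agonist AMY arrays, 14 members were higher and 34 lower in mice 21 to 40 than in mice 1 to 20 (limma), beside 13.4% and 11.7% of all probes. Actb differed by -0.78 ± 0.07 (adjusted p 9.36e-09), Mef2c ILMN_1214950 by -0.97 ± 0.16, Map1a, a microtubule protein, by -0.89 ± 0.10 and Pou3f1 by 0.68 ± 0.20. In PFC 11 were higher and 0 lower, beside 1.28% and 1.12% of probes, and 12 and 2 without the fenofibrate 20 array (1.64% and 1.44%). In liver 0 members were called, beside 0.005% of probes in either direction, with 12 at an unadjusted p under 0.05. Within mice 1 to 20, 200, 197 and 193 members were called between PFC and AMY with fenofibrate, tesaglitazar and bezafibrate. Within mice 21 to 40 the counts were 197, 197 and 199. The share of all probes called within these parts is not given.

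Liver was outside the ranking, and 133 members were above background on at least 9 liver arrays and could be tested. That is 66.5% of the members, against 82.4% of all ranked probes, and 46 members were above background on no liver array. Beside the 4 unnamed probes above, Igfbp4, a binding protein of insulin-like growth factors (12.86), and H2-Q5, a class I histocompatibility gene (12.24), were among the brightest in saline liver. Vxn, 9130024F11Rik and C2cd4a were among the dimmest, below background. Of 19 hepatocyte marker genes, 17 were above background on every liver array. Levels and differences from here on leave out the libraries labelled saline 4 and tesaglitazar 6, and the text gives beside them the values with all 37 arrays as labelled.

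Fenofibrate livers had 24 members higher and 24 lower than saline livers (limma), beside 14.5% and 15.2% of all 19984 probes; with all arrays the counts were 20 and 13, beside 10.1% and 10%. Tesaglitazar livers had 28 higher and 50 lower, beside 22.3% and 23.5%, and as labelled 27 and 39, beside 18.2% and 19.1%. Bezafibrate livers had 6 higher and 2 lower, beside 1.52% and 1.65%, and as labelled 4 and 1, beside 0.701% and 0.731%. The median member difference was -0.05, -0.10 and -0.03, against -0.01, -0.01 and 0.00 over all probes. Members called in liver had passed a filter on liver signal, so these counts cover the 133 only.

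Mgll rose at both member probes with fenofibrate and tesaglitazar. ILMN_2700408 had liver levels of 11.23, 11.73 and 11.94 with fenofibrate, 12.13, 12.28 and 12.45 with tesaglitazar, 9.16, 9.78 and 10.39 with bezafibrate and 9.03, 9.59 and 9.86 with saline. Fenofibrate and tesaglitazar arrays lay above every saline array and apart from each other, while bezafibrate overlapped saline. The difference from saline was 2.16 ± 0.12 with fenofibrate (4.47-fold; limma, adjusted p 2.46e-17) and 2.73 ± 0.12 with tesaglitazar (6.62-fold, adjusted p 2.14e-20), and with all arrays 1.86 and 2.11. With bezafibrate it was 0.24 ± 0.12 (adjusted p = 0.336), and with all arrays -0.06. Fenofibrate minus tesaglitazar was -0.57 ± 0.12 (adjusted p = 0.000533), a call that rests on the arrays left out: as labelled it was -0.25 ± 0.32 (adjusted p = 0.675), and -0.24 at ILMN_2592925 (0.695). Mgll is the member on the PPAR target list, of which 57, 64 and 13 of 69 probes tested were higher and 0, 3 and 0 lower with fenofibrate, tesaglitazar and bezafibrate.

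Osbpl3, an oxysterol-binding protein relative that carries lipids between membranes, was higher with all 3 agonists. It had levels of 7.19, 7.77 and 8.48 with fenofibrate, 6.11, 7.01 and 7.98 with tesaglitazar, 5.54, 6.14 and 6.57 with bezafibrate and 4.39, 5.45 and 5.90 with saline. Bezafibrate was the group that overlapped saline. The differences from saline were 2.48 ± 0.21 (5.59-fold; limma, adjusted p 3.21e-12), 1.80 ± 0.21 (3.49-fold, 5.51e-09) and 0.80 ± 0.21 (0.0233); as labelled they were 2.22, 1.32 and 0.54, the last with an adjusted p of 0.502. Fenofibrate exceeded tesaglitazar by 0.68 ± 0.21 (adjusted p = 0.0167; as labelled 0.90 ± 0.31 and 0.0484). It was above background on 8 of the 9 saline arrays and on every agonist array.

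Cdkn1a, the cyclin-dependent kinase inhibitor p21, was highest with tesaglitazar. Its levels were 4.61, 5.36 and 6.41 with fenofibrate, 6.01, 8.08 and 9.24 with tesaglitazar, 4.26, 4.41 and 4.90 with bezafibrate and 4.39, 4.54 and 4.94 with saline. It was above background on 8 of 9 fenofibrate, 8 of 8 tesaglitazar, 4 of 9 bezafibrate and 6 of 9 saline arrays, so that folds against bezafibrate and saline rest on levels near background. All tesaglitazar arrays lay above all saline arrays, and fenofibrate arrays overlapped both. Tesaglitazar minus saline was 3.19 ± 0.29 (9.12-fold; limma, adjusted p 9.43e-12) and fenofibrate minus tesaglitazar -2.43 ± 0.29 (5.59e-08). As labelled these were 2.58 ± 0.40 (limma, adjusted p 5.19e-06) and -2.08 (0.000754). Fenofibrate minus saline was 0.76 ± 0.28 (adjusted p = 0.0397), and as labelled 0.49 with an adjusted p of 0.425.

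Scn4b, variable in AMY, was not above background on any saline or bezafibrate liver array. It had 4.68, 5.22 and 5.63 with fenofibrate, 5.62, 6.31 and 6.58 with tesaglitazar, 4.17, 4.20 and 4.38 with bezafibrate and 4.13, 4.18 and 4.29 with saline. Against the lowest signal above background on each saline array it was at least 1.54-fold higher with fenofibrate and at least 3.24-fold higher with tesaglitazar. The fitted differences from saline were 0.96 with fenofibrate (limma, adjusted p 2.14e-08) and 2.04 with tesaglitazar (4.96e-17). It passed the filter on liver signal through these groups, with 9 of 9 and 8 of 8 arrays above background, so the calls are a description. Both agonist groups lay above every saline array. As labelled, where the library saline 4 was above background, the fitted differences were 0.72 ± 0.25 (limma, adjusted p = 0.0374) and 1.57 (7.62e-06).

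Hr, the hairless corepressor of nuclear receptors, had levels of 5.38, 5.87 and 6.55 with fenofibrate, 6.33, 7.05 and 7.52 with tesaglitazar, 4.74, 5.16 and 5.57 with bezafibrate and 4.82, 5.16 and 5.54 with saline. It was 0.77 ± 0.13 higher with fenofibrate (limma, adjusted p 1.58e-05; 0.54 and 0.109 as labelled) and 1.87 ± 0.14 higher with tesaglitazar (2.18e-14; 1.46 as labelled). Bezafibrate and saline covered the same range. Pdzrn3, a ubiquitin ligase with PDZ domains, was higher by 1.48 and 1.85 (1.25 and 1.46 as labelled). Ppm1h, a phosphatase, was higher by 1.44 with tesaglitazar (1.07 as labelled) and stood at 0.04 with fenofibrate (limma, adjusted p = 0.886). For Ppm1h fenofibrate minus tesaglitazar was -1.40 ± 0.16 (limma, adjusted p 3.02e-08), and -1.21 as labelled (0.000807).

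Epop, a factor bound to Polycomb and elongin complexes, was called with all 3 agonists. Its levels were 6.87, 7.08 and 7.31 with fenofibrate, 6.82, 7.27 and 7.45 with tesaglitazar, 6.43, 6.92 and 7.47 with bezafibrate and 5.97, 6.18 and 6.75 with saline. Fenofibrate and tesaglitazar arrays lay above every saline array, and bezafibrate arrays overlapped them. The differences were 0.88 ± 0.11, 0.95 ± 0.11 and 0.71 ± 0.11 (limma, adjusted p 3.07e-08, 3.21e-09 and 4.4e-05), and 0.79, 0.83 and 0.63 as labelled. Fbxo31, an F-box protein of ubiquitin ligases, was higher by 0.80, 0.74 and 0.58; as labelled these were 0.71, 0.54 and 0.49, the last with an adjusted p of 0.0598. Tnnc1, the troponin gene above, was higher with fenofibrate (0.59 ± 0.12, limma, adjusted p = 0.000187) and bezafibrate (0.49 ± 0.12, 0.0159) and -0.10 with tesaglitazar (0.529); as labelled these were 0.61, 0.52 and -0.08. It was above background on 7 of the 9 saline arrays and on every agonist array.

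Inhba fell furthest among the named members with fenofibrate and tesaglitazar. It had 4.90, 5.58 and 5.83 with fenofibrate, 5.14, 5.28 and 5.49 with tesaglitazar, 5.64, 6.43 and 7.19 with bezafibrate and 6.40, 7.06 and 7.82 with saline. No fenofibrate or tesaglitazar array reached the saline range, while bezafibrate arrays overlapped it. The differences were -1.58 ± 0.18, -1.82 ± 0.18 and -0.73 ± 0.18 (limma, adjusted p 4.42e-09, 9.35e-11 and 0.015), and as labelled they were -1.37, -1.44 and -0.52, the last with an adjusted p of 0.4. The unnamed ILMN_2762640 was -0.97 ± 0.16 with fenofibrate (limma, adjusted p 1.12e-05), -2.16 ± 0.17 with tesaglitazar (1.45e-13) and -0.08 ± 0.16 with bezafibrate (0.877); as labelled these were -0.78, -1.72 and 0.12.

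Ngef, a guanine nucleotide exchange factor, was called in opposite directions by tesaglitazar and bezafibrate. Its probe ILMN_1245037 had 8.25, 8.62 and 8.93 with fenofibrate, 6.24, 6.89 and 7.71 with tesaglitazar, 8.62, 8.83 and 9.31 with bezafibrate and 7.79, 8.24 and 8.65 with saline. Every tesaglitazar array lay below every saline array. The differences were 0.36 ± 0.16 (limma, adjusted p = 0.0854), -1.27 ± 0.16 (2.36e-08) and 0.64 ± 0.16 (0.0156), and as labelled 0.48, -1.04 and 0.76. ILMN_2822905, its other member probe, gave 0.19, -1.13 and 0.50, and as labelled 0.32, -0.93 and 0.63. Tesaglitazar minus bezafibrate was -1.91 ± 0.16 and -1.63 ± 0.13 at these probes (limma, adjusted p 1.52e-12 and 1.96e-13), and -1.80 and -1.56 as labelled.

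Of the remaining members, the transcription factor Foxp1 was lower with fenofibrate and tesaglitazar (-0.67 and -0.51; limma, adjusted p 3.39e-06 and 0.000158), with -0.35 for bezafibrate (0.0571); as labelled these were -0.61, -0.42 and -0.29. Plxna2, a semaphorin receptor, was called at -0.55 with fenofibrate, -0.34 with tesaglitazar and -0.59 with bezafibrate. As labelled it was -0.49 and -0.53 with fenofibrate and bezafibrate, and the tesaglitazar call was lost (-0.26 ± 0.13, limma, adjusted p = 0.108). Marf1 was -0.57 ± 0.10 with fenofibrate (limma, adjusted p 1.61e-05) and -0.67 ± 0.10 with tesaglitazar (5.99e-07), and -0.51 and -0.54 as labelled.

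The unnamed probes ILMN_2744660 and ILMN_2744657 were among the largest rises with fenofibrate. ILMN_2744660 was higher by 1.56 ± 0.18 with fenofibrate (limma, adjusted p 6.72e-09) and 1.41 ± 0.18 with tesaglitazar (3.81e-08), and stood at 0.15 ± 0.18 with bezafibrate (0.767). ILMN_2744657 gave 1.51, 1.39 and 0.13 in the same order. As labelled the fenofibrate and tesaglitazar values were 1.41 and 1.11 at ILMN_2744660 and 1.37 and 1.12 at ILMN_2744657, and fenofibrate minus bezafibrate was 1.41 and 1.38 at these probes either way.

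Between agonists, 28 members were higher and 16 lower with fenofibrate than with tesaglitazar (11.8% and 12.6% of all probes), 22 and 17 with fenofibrate than with bezafibrate (10.4% and 10.5%), and 29 and 41 with tesaglitazar than with bezafibrate (21.2% and 21.6%). As labelled these counts were 19 and 8 (6.86% and 7.01%), 19 and 7 (7.99% and 7.4%), and 29 and 33 (18.6% and 18.9%). Tesaglitazar exceeded bezafibrate most at Cdkn1a (3.31 ± 0.29) and at Mgll (2.55 ± 0.11 at ILMN_2592925), which were 2.96 and 2.18 as labelled. Cobl, an actin nucleator, was lower with tesaglitazar than with bezafibrate (-1.15 ± 0.10; limma, adjusted p 3.09e-12), and stood at -1.06 as labelled. Gm26588 was lower with fenofibrate than with tesaglitazar (-0.85 ± 0.15; limma, adjusted p 5.12e-05), and stood at -0.68 as labelled (0.0312). The unnamed ILMN_1230357 was lower with fenofibrate than with bezafibrate (-0.26 ± 0.08; limma, adjusted p = 0.014, and 0.0403 as labelled).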

How the data were processed

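RNA of each tissue was amplified, biotin-labelled and hybridised to Illumina bead arrays, per the labels' protocols. Per the file headers and values, the deposited table gives a raw probe intensity and a detection p-value for each array and probe, with no normalisation. The authors' processed log2 values were deposited too and served as an alternative; the submitters' processing notes name lumi, with no version given in the sources used here. Titles tied the columns to samples, and 8 columns with no such match were set aside. Gene symbols came from the platform annotation (34885 probes with 1 symbol, 18 with several, 10378 with none), checked against RefSeq, which changed 0.

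All further steps used R 4.3.3, limma 3.58.1 and, for promoter searches, Python 3.11.15. Background was removed with limma's nec, driven by the detection p-values (offset 16), before quantile normalisation over the 75 brain arrays or the 37 liver arrays and a log2 transform. Folds of dim probes are understated by the offset. Probes detected (p under 0.05) on 9 or more arrays of a tissue, or of the brain, were fitted with lmFit and eBayes, and p-values were adjusted by Benjamini-Hochberg over all probes tested, two-sided, with a threshold of 0.05. Regional contrasts used the 56 agonist arrays, and contrasts within a tissue all 4 groups. The fits were tested on simulated data. Values after ± are limma's SE for differences and SD for levels.

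The members, lists and role groups were chosen with earlier results of these data known; the roles and the promoters shown were set after the members were seen. Named were the 20 members highest in the ranking, those at its threshold, the 5 largest rises and falls called per comparison, list members, and the dimmest and brightest in liver; others were named after their values were seen. Mouse numbers were not taken to pair the regions: over 35 pairs, the median correlation of deviations from the group mean was 0.0611 for the same number and -0.000861 for other numbers, with 15 over 0.1. The regional fits treat both regions of a mouse as independent. Where no array of a group had a probe above background, the fold is a lower bound against the lowest signal above background on each array. The alternatives were other scalings, filters and fits, membership rules, and fits without the arrays named above or within parts of the mouse numbering.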

Additional observations from a re-analysis of the deposited data

Results flagged for a closer look

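In 35 of 200 groups of arrays examined, the highest or lowest array was farther from its neighbour than Dixon's criterion allows, where chance alone gives about 1 in 20. All values are log2 levels. The PFC array of fenofibrate mouse 20 accounted for 13 of them. On it the mean over the members was 9.15 and the mean over the amygdala-enriched probes 8.12, the lowest and the highest of the fenofibrate PFC group. ILMN_2417926 stood at 10.41, Trbv13-2 at 8.08, Cpne9 at 9.20, Tnnc1 at 8.43, Myl4 at 9.75 and Lamp5 at 11.59 there, each the lowest of its group. So did Tbr1 at 9.12, Pvalb at 9.92, Vip at 9.60 and Mgll at 10.37, while Meis2 was the highest at 12.92.

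Among other arrays, tesaglitazar mouse 28 was lowest in PFC for the member mean (9.42), Pvalb (10.60) and Scn4b (8.11). Saline mouse 2 was highest in AMY for ILMN_2417926 (9.56), Trbv13-2 (7.49) and Cpne9 (8.68), and tesaglitazar mouse 26 for ILMN_2417926 (8.02) and Trbv13-2 (6.01). Saline mouse 25 was lowest in AMY for Myl4 (6.72), Mef2c (9.24) and Cckbr (8.16). The 3 saline AMY values of mouse 2 and those of mouse 25 belong to arrays that entered the ranking.

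The remaining values came 1 to an array or from arrays named for other probes. In AMY the member mean was highest in fenofibrate mouse 19 (8.38), Myl4 was lowest in fenofibrate mouse 38 (7.17) and Vip was lowest in tesaglitazar mouse 29 (8.19). In PFC ILMN_2417926 was lowest in saline mouse 4 (10.97), and Myl4 was highest in saline mouse 23 (11.26), Mef2c in saline mouse 1 (12.84), Actb in saline mouse 24 (12.31), Csnk1e in bezafibrate mouse 32 (10.06) and Mgll in tesaglitazar mouse 10 (11.24). In liver the member mean was lowest in saline mouse 1 (6.02) and Pdzrn3 in saline mouse 2 (5.99).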

How the results depend on the processing

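Alternative values were taken for 82 results, which were the up to 5 largest rises and 5 largest falls called in each comparison. Of these values, 899 kept their direction and call, 115 lost the threshold, 57 of them in mice 1 to 20 only, and 0 reversed. Being the largest calls, and in part probes of the same gene, the 82 do not stand for the members at large. The following counts are of members called, either direction, where the cause was not tested. For most of them the share of all probes called is not given. PFC fenofibrate against saline gave 7 as reported, 3 with no detection filter, 2 with the groups compared alone, 12 with the numbering part as a block and 0 in mice 1 to 20 or 21 to 40 alone. PFC fenofibrate against tesaglitazar gave 22 as reported, 35 with array weights and 0 in mice 1 to 20, and median centring gave PFC tesaglitazar against saline 1 (with the median of all probes moved by 0.11). In AMY, mice 1 to 20 gave 20 for fenofibrate and 22 for bezafibrate against saline, and mice 21 to 40 gave 4 for fenofibrate, 12 for tesaglitazar and 1 for bezafibrate. In mice 21 to 40 the regional difference differed between fenofibrate and tesaglitazar for 5. In liver, settings were changed from the fits on all arrays as labelled. Those fits called 33, 66 and 5 members against saline for fenofibrate, tesaglitazar and bezafibrate. Fenofibrate against saline gave 52 with array weights and 3 in mice 1 to 20, and tesaglitazar against saline 0 in mice 1 to 20. Bezafibrate against saline gave 2 with no filter, 1 in mice 1 to 20, 1 in mice 21 to 40 and 8 without the doubtful pair. Between agonists, the as-labelled fits called 27 members for liver fenofibrate against tesaglitazar, 26 for fenofibrate against bezafibrate and 62 for tesaglitazar against bezafibrate. Fenofibrate against tesaglitazar gave 47 with array weights, 3 in mice 1 to 20 and 44 without the pair. In mice 1 to 20, fenofibrate against bezafibrate gave 0 and tesaglitazar against bezafibrate 18. The pair lies in mice 1 to 20. A replicate block by mouse number gave 199, 197 and 198 members called between PFC and AMY for fenofibrate, tesaglitazar and bezafibrate, and 0 for each difference between agonists. Median centring moved the median of all probes in the bezafibrate regional contrast by -0.12, with 2549 probes higher and 9157 lower (fenofibrate 3388 and 8466, tesaglitazar 3269 and 6314). Ranking by a moderated t statistic in place of the difference kept 93 of the 200 members, background-corrected values 137, median centring 187 and the authors' processed values 165.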
